A study of Mus musculus with 6 samples.

Results

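The core circadian clock genes and their output genes of the PAR-bZIP family (proline and acidic amino acid-rich basic leucine zipper factors) were followed in the livers of mice with and without hepatocyte *SHMT2*. The 10 genes are *Clock*, *Npas2*, *Per1*, *Per2*, *Per3*, *Cry1*, *Cry2*, *Ciart*, *Dbp* and *Tef*, found by matching the Ensembl mouse gene IDs of the count table to these symbols. They are 10 of 49671 gene IDs, and all 10 passed the filter on low counts among the 16089 genes tested. They serve here as a check on whether the livers of both genotypes were at a like phase of the clock when they were taken.

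The clock of a liver cell is a feedback loop of transcription. CLOCK or its relative NPAS2 pairs with BMAL1 (gene *Arntl*) and binds E-boxes, short DNA elements, to switch on the *Per*, *Cry*, *Ciart* and *Dbp* genes, and the PER and CRY proteins return to the nucleus and stop their own activators. The nuclear receptors REV-ERB (*Nr1d1*, *Nr1d2*) and ROR (*Rora*) repress and activate *Arntl* and *Npas2*, while DBP, TEF and HLF activate genes with D-boxes and NFIL3 competes with them. In mouse liver *Dbp* and *Npas2* peak at opposite times of day.

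RNA from whole liver was sequenced in 3 mice of each genotype. The labels call the groups WT and KO. WT mice were read as the SHMT2 fl/fl controls of the study and KO mice as SHMT2 HKO. Both groups carry floxed *SHMT2*, and KO mice also carry Cre driven by the Albumin promoter, which acts in hepatocytes and leaves the gene in the other cells of the liver. All 6 were male, of C57BL/6J background, were given the AMLN diet (rich in fat, fructose and cholesterol) at the age of 4 weeks for 18 weeks, and were fasted before harvest at 22 weeks under a regular day-night cycle. The hour of harvest of each mouse is not given in the sources used here. The sources do not say whether mice were littermates, and p-values measure the spread between these 3 samples of each group.

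Counts on genes ranged from 23090837 to 34089722 per mouse, and values are given as CPM, the usual count relative to library size, with libraries scaled by TMM (trimmed mean of M values). *Shmt2* itself was at 94.6, 109 and 93.9 CPM in WT mice and at 24.9, 28.3 and 19.3 CPM in KO mice, with no overlap (log2 fold change, KO minus WT, −2.04, SE 0.16, edgeR adjusted p = 0.000639). The defining hepatocyte markers were present in every library, and 5 of the 6 listed were matched, with a summed level of 47251 to 58633 CPM in WT and 59131 to 88607 CPM in KO. *Alb* made up most of this sum (34486–43319 CPM in WT and 42706–65656 in KO) and overlapped (edgeR adjusted p = 0.132). All 5 had a positive log2 fold change, but only *Ttr*, which also overlapped, had an edgeR adjusted p under 0.05 (0.0498). *Apoa1* and *Hnf4a* did not overlap, and *Cps1* did. The summed markers of other cells also moved with genotype: from 488–639 CPM in WT to 301–350 in KO for 5 macrophage genes, from 1156–1231 to 265–717 for 5 stellate and fibroblast genes, from 32.5–49.2 to 12.3–22.0 for 5 lymphocyte genes, from 128–237 to 22.7–29.9 for 4 cholangiocyte genes, and from 126–150 to 203–236 for 5 endothelial genes. Within the macrophage list *Lyz2* made up most of the sum (319–448 CPM in WT and 86.8–166 in KO), and the Kupffer cell marker *Clec4f* went the other way, from 8.80–23.9 CPM in WT to 65.9–137 in KO (log2 fold change 2.83, edgeR adjusted p = 0.00391). Of the stellate and fibroblast genes 4 had a negative log2 fold change, while *Lrat* was at 0.025 (edgeR adjusted p = 0.959). *Dcn*, 1 of these 4, was at −0.60 (edgeR adjusted p = 0.120) and overlapped. Of the endothelial genes 4 had a positive log2 fold change, and *Pecam1* was at −0.24 (edgeR adjusted p = 0.261). None of these markers was at 0 in all mice. Their part in the results on clock genes was not tested, and in whole liver fewer cells of a type and less RNA per cell cannot be told apart.

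None of the 10 clock genes changed with genotype at an adjusted p under 0.05 by edgeR's quasi-likelihood test (two-sided, with Benjamini-Hochberg adjustment over all genes tested). In the same comparison 29.0% of all tested genes were called (12.5% higher and 16.5% lower in KO). At an unadjusted p under 0.05, 2 clock genes stood, *Npas2* lower and *Per2* higher, beside 41.4% of all genes. The study's methods used a cutoff of p under 0.05 with an adjusted p under 0.25, on limma-voom. Applied to the edgeR p-values, this cutoff took the same 2 clock genes, again beside 41.4%. DESeq2 and limma-voom also called 0 of 10, beside 33.7% and 29.8% of all genes. At an unadjusted p under 0.05, DESeq2 had 2 clock genes (*Per2* and *Tef*) beside 41.6% of all genes, and limma-voom had 3 (*Npas2*, *Per2* and *Tef*) beside 41.7%. The limma-voom adjusted p of these 3 was 0.078, 0.114 and 0.108, so all 3 pass the study's cutoff with that test. The groups did not overlap for 3 of 10 clock genes (*Per3* and *Tef* higher in KO, *Npas2* lower), beside 46.9% of all genes (21.9% higher and 25.0% lower).

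Most estimated differences were small, and the genes varied between mice. The largest in size were those of *Npas2* (log2 fold change −1.12) and *Per2* (0.63). The median log2 fold change of the 10 genes was 0.21 against 0.03 for all tested genes, and the median absolute value was 0.26 against 0.39. The median within-group SD of the clock genes was 0.34 on the log2 scale, and 6 of 10 lay above the median of all tested genes, 0.25. With TMM scaling, the 95% interval of the difference lay within 1 log2 unit of 0, below a 2-fold change, for 6 of 10 clock genes. This was so for 52.7% of all genes. These intervals do not include the choice of scaling, which moved the estimates as given below. The interval of *Npas2*, *Per1*, *Per2* and *Cry1* reached past 1 log2 unit, so it contained a 2-fold difference.

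**Figure D1:**
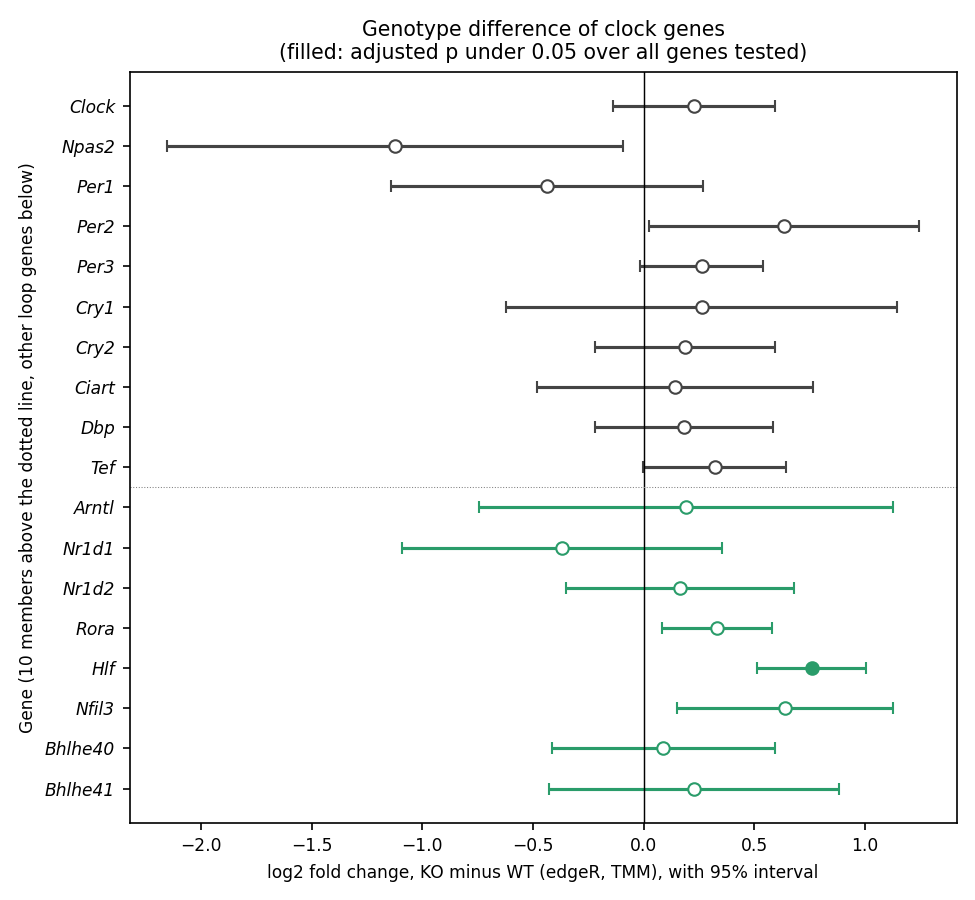
Log2 fold change (KO minus WT) of the 10 clock and PAR-bZIP genes above the dotted line and of 8 other genes of the clock loops below it, from edgeR with TMM scaling, with 95% intervals; filled points have an adjusted p under 0.05 over all tested genes. All 10 points above the line are open, the intervals of *Npas2* and *Per2* do not reach 0, and *Hlf* is the filled point below it.

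Promoters of 4 members are shown because they carry the elements through which the loops described above act. They are the 250 bases before a transcription start of RefSeq on GRCm38.p6, 5′ to 3′ on the gene's strand, and capitals mark the E-box CACGTG, the related E-prime box CACGTT and the D-box TTANGTAA, each searched on both strands. The E-prime box of *Cry1* was found on the opposite strand. No capitals overlap.
*Ciart* (chr3:95882229-95882478, − strand): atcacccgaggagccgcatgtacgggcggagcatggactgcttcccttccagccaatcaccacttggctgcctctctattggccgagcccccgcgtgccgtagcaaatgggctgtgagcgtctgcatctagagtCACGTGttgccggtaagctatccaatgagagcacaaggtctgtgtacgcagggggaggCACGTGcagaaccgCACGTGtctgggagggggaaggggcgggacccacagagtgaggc
*Cry1* (chr10:85185055-85185304, − strand): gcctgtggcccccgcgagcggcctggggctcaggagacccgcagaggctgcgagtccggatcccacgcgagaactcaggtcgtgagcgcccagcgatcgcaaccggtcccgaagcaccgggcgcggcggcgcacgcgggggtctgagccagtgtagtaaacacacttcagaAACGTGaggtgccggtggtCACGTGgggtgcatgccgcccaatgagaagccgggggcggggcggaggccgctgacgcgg
*Per1* (chr11:69098699-69098948, + strand): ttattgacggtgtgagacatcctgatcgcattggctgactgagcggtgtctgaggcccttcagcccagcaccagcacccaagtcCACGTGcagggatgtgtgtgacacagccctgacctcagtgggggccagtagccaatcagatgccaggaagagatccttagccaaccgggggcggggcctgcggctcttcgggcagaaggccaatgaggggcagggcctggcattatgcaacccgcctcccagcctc
*Per3* (chr4:151044666-151044915, − strand): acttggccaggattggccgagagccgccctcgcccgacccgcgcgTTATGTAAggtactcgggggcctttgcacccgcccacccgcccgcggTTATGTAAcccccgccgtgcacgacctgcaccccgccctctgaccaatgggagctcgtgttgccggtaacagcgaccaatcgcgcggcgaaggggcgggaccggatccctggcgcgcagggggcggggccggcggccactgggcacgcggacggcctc
The 3 E-boxes of *Ciart* begin 116, 58 and 44 bases before the start, and the E-prime box and E-box of *Cry1* begin 79 and 60 bases before it. The E-box of *Per1* begins 166 bases before the start, and the pair of D-boxes of *Per3* 205 and 158 bases before it. In the GENCODE M21 annotation the last 23 bases of the *Ciart* window, the last 10 of the *Cry1* window and the last base of the *Per1* window fall in exons of the same gene, the rest of the *Per1* window is intronic because longer *Per1* transcripts start upstream, and the *Per3* window lies outside the gene.

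Promoters were given for 9 of 10 members, all but *Per2*. Of these 9, 4 had an E-box (*Per1*, *Cry1*, *Tef* and *Ciart*) against 6.86% of 27025 gene symbols, 2 had an E-prime box (*Cry1* and *Cry2*) against 4.50%, and 1 had a D-box (*Per3*) against 2.44%. No window held the cyclic AMP element TGACGTCA (1.77% of symbols) or the core of the ROR element TAGGTCA (2.55%). A window without a match lacks these letters in these 250 bases only.

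*Clock* and *Npas2* encode the activators that pair with BMAL1. *Clock* (ENSMUSG00000029238, chr5:76209868-76304792, GRCm38) was at 24.1, 17.5 and 18.9 CPM in WT mice 1, 2 and 3 and at 23.0, 21.1 and 26.7 CPM in KO mice 1, 2 and 3. The groups overlapped, with WT mouse 1 above 2 of the 3 KO mice. The mean was 20.2 ± 3.46 (SD, n = 3) CPM in WT and 23.6 ± 2.85 (SD, n = 3) CPM in KO, a log2 fold change of 0.23 (SE 0.16, 95% interval −0.14 to 0.59, edgeR adjusted p = 0.323). It ranged from 0.10 without KO mouse 3 to 0.37 without WT mouse 1.

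*Npas2* (ENSMUSG00000026077, chr1:39193731-39363236) had the lowest counts of the 10 genes, 48, 19 and 32 reads in WT mice and 8, 13 and 7 in KO mice. This was 1.17, 0.715 and 0.835 CPM in WT and 0.340, 0.658 and 0.276 CPM in KO. All KO mice were below all WT mice, although KO mouse 2 was close to WT mouse 2. The log2 fold change was −1.12 (SE 0.45, 95% interval −2.15 to −0.09), the largest in size among the 10 genes, with an adjusted p = 0.0951 by edgeR's quasi-likelihood test. It was −1.57 with library sizes alone and −1.99 with scaling to the ERCC RNAs, synthetic transcripts added to each sample, and under both of these the edgeR adjusted p was 0.027, where 33.9% and 17.8% of all genes were called.

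The period genes encode repressors, of which *Per1* also responds directly to glucocorticoids. *Per1* (ENSMUSG00000020893, chr11:69095217-69109960) was at 80.5, 97.6 and 41.6 CPM in WT mice and at 40.1, 60.9 and 61.3 CPM in KO mice. WT mouse 3 was close to KO mouse 1, and the other WT mice were above all KO mice. Means were 73.2 ± 28.7 (SD, n = 3) in WT and 54.1 ± 12.1 (SD, n = 3) CPM in KO, with a log2 fold change of −0.44 (SE 0.31, 95% interval −1.14 to 0.27, edgeR adjusted p = 0.324). Without WT mouse 2 it was −0.17 and without WT mouse 3 it was −0.72.

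*Per2* (ENSMUSG00000055866, chr1:91415982-91459324) was at 19.7, 30.2 and 24.8 CPM in WT mice and at 26.8, 34.8 and 54.1 CPM in KO mice. The groups overlapped, since KO mouse 1 lay below WT mouse 2, and KO mouse 3 stood well above the rest. The log2 fold change was 0.63 (SE 0.26, 95% interval 0.02 to 1.24), with an adjusted p = 0.109 by edgeR's quasi-likelihood test. It depended on single mice: without KO mouse 3 it was 0.29, and without KO mouse 1 it was 0.84, with an edgeR adjusted p = 0.0221 and 29.4% of all genes called.

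*Per3* (ENSMUSG00000028957, chr4:151003652-151044665), whose promoter window held the D-boxes printed above, was at 23.4, 26.3 and 28.2 CPM in WT mice and at 29.0, 31.2 and 33.3 CPM in KO mice. All KO mice were above all WT mice, with a gap of less than 1 CPM between WT mouse 3 and KO mouse 1. The log2 fold change was 0.26 (SE 0.12, 95% interval −0.01 to 0.54, edgeR adjusted p = 0.139), and it was −0.15 with library sizes alone and −0.42 with ERCC scaling.

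The cryptochromes are the partners of PER in repression. *Cry1* (ENSMUSG00000020038, chr10:85131700-85185064) was at 3.99, 11.1 and 7.49 CPM in WT mice and at 5.73, 10.7 and 10.5 CPM in KO mice. The lowest and the highest of the 6 values were both in WT mice, and the fold between them, 2.78, was the widest range within a group among the 10 genes. Genotypes differed by a log2 fold change of 0.26 (SE 0.38, 95% interval −0.62 to 1.15, edgeR adjusted p = 0.642). The sign turned without WT mouse 1 (−0.045), and without WT mouse 2 the log2 fold change was 0.65.

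*Cry2* (ENSMUSG00000068742, chr2:92403646-92434043) was at 34.2, 49.1 and 47.9 CPM in WT mice and at 47.8, 58.6 and 43.0 CPM in KO mice. The groups overlapped, with WT mouse 1 lowest and KO mouse 2 highest. Its log2 fold change was 0.19 (SE 0.18, 95% interval −0.22 to 0.59, edgeR adjusted p = 0.465), and without WT mouse 1 it was 0.037.

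*Ciart* (ENSMUSG00000038550, chr3:95878503-95882251), which encodes the repressor CHRONO and carried the 3 E-boxes printed above, was at 12.9, 23.2 and 11.0 CPM in WT mice and at 19.4, 17.5 and 14.9 CPM in KO mice. The KO mice lay between the WT mice. Its log2 fold change was 0.14 (SE 0.27, 95% interval −0.48 to 0.77, edgeR adjusted p = 0.727). This ranged from −0.061 without WT mouse 3 to 0.53 without WT mouse 2.

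*Dbp* and *Tef* encode PAR-bZIP factors, which carry the clock's timing to genes of metabolism and detoxification. *Dbp* (ENSMUSG00000059824, chr7:45705088-45710203) was at 134, 126 and 167 CPM in WT mice and at 185, 169 and 129 CPM in KO mice. The groups overlapped, with KO mouse 3 below WT mice 1 and 3. Means were 142 ± 21.5 (SD, n = 3) CPM in WT and 161 ± 28.9 (SD, n = 3) CPM in KO, a log2 fold change of 0.18 (SE 0.18, 95% interval −0.22 to 0.58, edgeR adjusted p = 0.477). The log2 fold change was 0.072 without KO mouse 1 and 0.31 without WT mouse 3. *Dbp* is a gene of very large daily swing in mouse liver, and here it varied 1.32-fold among WT mice and 1.43-fold among KO mice. Exons of *Sphk2* on the opposite strand cover 539 bases, 18.0% of the merged exons of *Dbp*, and the sources do not state whether counting used the strand. The same holds for overlaps of 295 bases in *Cry2* (4.67% of its exons), 193 in *Tef* (2.45%) and, with *Thra*, 263 in *Nr1d1* (8.55%).

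*Tef* (ENSMUSG00000022389, chr15:81802421-81826863) was at 133, 168 and 173 CPM in WT mice and at 205, 197 and 190.3 CPM in KO mice. All KO mice were above all WT mice, and the 3 KO values were close together. Means were 158 ± 21.8 (SD, n = 3) CPM in WT and 197 ± 7.16 (SD, n = 3) CPM in KO, with a log2 fold change of 0.32 (SE 0.14, 95% interval −0.0012 to 0.64, edgeR adjusted p = 0.122). With library sizes alone it was −0.10, with ERCC scaling −0.40 and without WT mouse 1 0.21.

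**Figure D2:**
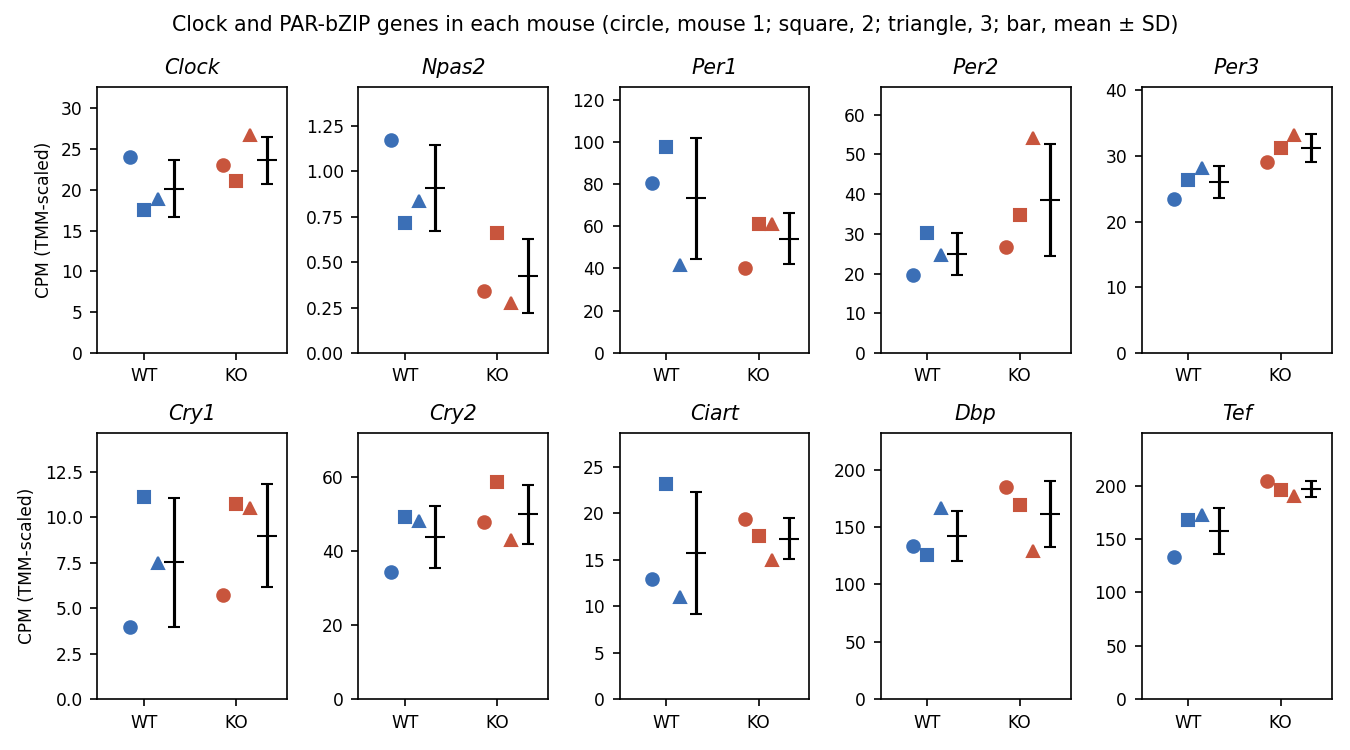
CPM with TMM-scaled library sizes of the 10 clock and PAR-bZIP genes in each mouse, with WT in blue and KO in red, symbols for mouse numbers within a genotype and bars for the mean ± SD of 3 mice; each panel starts at 0. The points of WT and KO separate for *Npas2*, *Per3* and *Tef* and mix for the other 7 genes.

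Per kilobase of merged exons, which allows genes to be compared, *Dbp* was the most abundant of the 10 in WT mice, at 47.5 ± 7.20 (SD, n = 3) CPM per kilobase, followed by *Tef* at 20.1 ± 2.77, *Per1* at 13.0 ± 5.10, *Ciart* at 6.94 ± 2.90, *Cry2* at 6.92 ± 1.31, *Per2* at 4.25 ± 0.898, *Per3* at 2.70 ± 0.253, *Cry1* at 2.25 ± 1.06, *Clock* at 1.47 ± 0.252 and *Npas2* at 0.190 ± 0.0497 CPM per kilobase. In WT mice the values of *Per1* overlapped those of *Tef*, *Ciart* and *Cry2*, and the values of *Ciart* also overlapped those of *Cry2* and *Per2*. Those of *Cry1* overlapped the values of *Per3* and of *Clock*. The order within these pairs is not set by the data. The order by means in KO mice was the same but for *Cry2* (7.88 ± 1.27 CPM per kilobase) above *Ciart* (7.64 ± 0.986), a pair that overlapped in both genotypes. In KO mice *Dbp* was at 53.8 ± 9.65 and *Npas2* at 0.0886 ± 0.0428 CPM per kilobase.

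The order of the 3 mice of a genotype differed between genes. WT mouse 1 had the highest *Clock* and *Npas2* of the WT mice and the lowest *Per2*, *Per3*, *Cry1*, *Cry2* and *Tef*. WT mouse 2 was the highest in 5 of the 10 genes and the lowest in 3. KO mouse 3 had the highest *Clock*, *Per1*, *Per2* and *Per3* of the KO mice and the lowest *Npas2*, *Cry2*, *Ciart*, *Dbp* and *Tef*. KO mouse 1 was the lowest in 4 genes and KO mouse 2 in 1. With no hour of harvest for single mice, these differences between mice cannot be told apart from differences in the time at which each liver was taken.

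Ratios within a library do not depend on its scaling. The log2 ratio of *Dbp* to *Npas2* counts, genes with opposite daily peaks, was 6.83, 7.46 and 7.64 in WT mice and 9.09, 8.00 and 8.87 in KO mice. The KO mice were all higher, with means of 7.31 ± 0.43 (SD, n = 3) and 8.66 ± 0.57 (SD, n = 3), while *Dbp* by itself overlapped. This separation thus restates the difference of *Npas2* (edgeR adjusted p = 0.0951), which rests on 19 to 48 reads in WT mice and 7 to 13 in KO mice. The ratio of *Dbp* to *Arntl*, the other activator gene with a peak opposite to *Dbp*, was 5.43, 6.04 and 6.51 in WT mice and 6.57, 5.31 and 6.25 in KO mice and overlapped. These and the following ratios were not tested, and all but the first were chosen after values had been seen.

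The log2 ratio of *Npas2* to *Clock* was −4.36, −4.61 and −4.50 in WT mice and −6.08, −5.00 and −6.60 in KO mice, without overlap. It ranged over 0.26 log2 units in WT and 1.60 in KO, where *Npas2* had only 8, 13 and 7 reads. The part of sampling noise in this wider range was not tested. The log2 ratio of *Per2* to *Per1* was −2.03, −1.69 and −0.75 in WT mice and −0.58, −0.81 and −0.18 in KO mice. This overlapped because WT mouse 3 was above KO mouse 2.

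**Figure D3:**
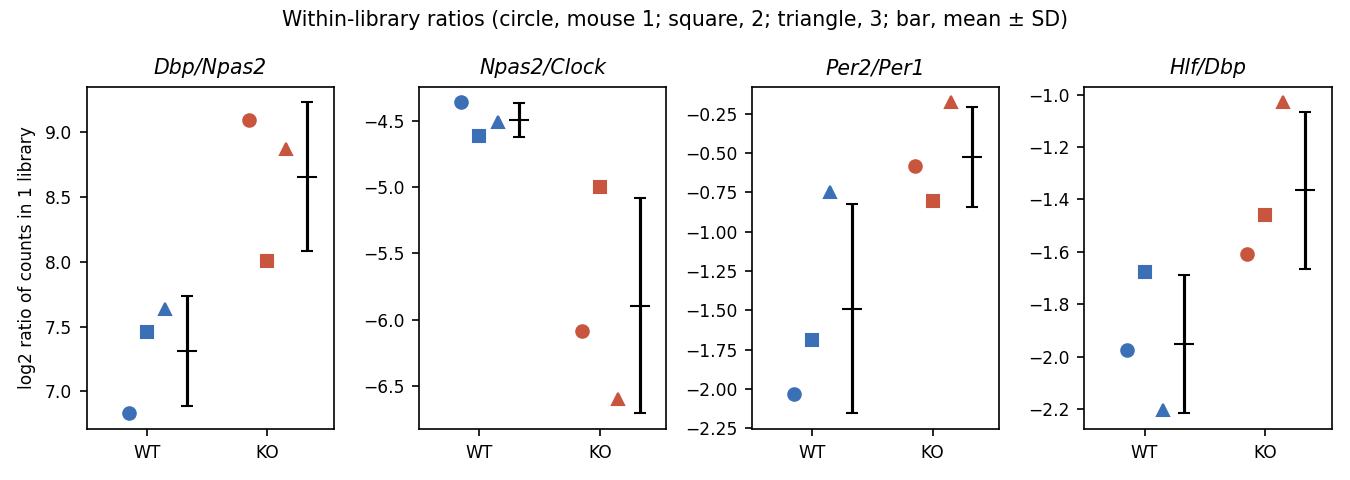
Log2 ratios of the counts of gene pairs within each library, WT in blue and KO in red, with symbols for mouse numbers within a genotype and bars for the mean ± SD of 3 mice; the vertical axes differ between panels and do not start at 0. The genotypes separate for *Dbp/Npas2*, *Npas2/Clock* and *Hlf/Dbp* and overlap for *Per2/Per1*.

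Of 8 other genes of the clock loops, 1 rose in KO mice and 0 fell, which is 12.5% called beside the 29.0% of all genes, with a median log2 fold change of 0.21 against 0.03. *Hlf*, the third PAR-bZIP gene, was at 34.0, 39.4 and 36.2 CPM in WT mice and at 60.8, 61.5 and 63.2 CPM in KO mice. The KO values lay far above the WT values and close to each other, over a 1.04-fold range. The log2 fold change was 0.76 (SE 0.11, edgeR adjusted p = 0.00251). The log2 ratio of *Hlf* to *Dbp*, −1.98, −1.68 and −2.20 in WT mice and −1.61, −1.46 and −1.03 in KO mice, did not overlap either. The call of *Hlf* was lost with library sizes alone (log2 fold change 0.34, edgeR adjusted p = 0.0975) and with ERCC scaling (0.067, edgeR adjusted p = 0.924). Relative to the median gene of the same scaling *Hlf* was at 0.73, 0.73 and 0.76 with TMM, library sizes alone and ERCC scaling.

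The other 7 genes of the loops did not pass. *Arntl*, the obligate partner of CLOCK and NPAS2, was at 3.11, 1.92 and 1.83 CPM in WT mice and at 1.95, 4.25 and 1.69 CPM in KO mice and overlapped (log2 fold change 0.19, edgeR adjusted p = 0.754, and −0.33 without KO mouse 2). Within each genotype the mouse with the highest *Arntl* was also the one with the highest *Npas2*, WT mouse 1 and KO mouse 2. *Nr1d1*, the REV-ERBα repressor, was at 94.3, 48.1 and 104 CPM in WT mice and at 84.8, 60.3 and 46.2 CPM in KO mice (−0.37, edgeR adjusted p = 0.418, and −0.16 without WT mouse 3 or −0.64 without WT mouse 2). Log2 fold changes were 0.33 for *Rora*, 0.64 for the D-box repressor *Nfil3*, 0.17 for *Nr1d2*, and 0.09 and 0.23 for the E-box repressors *Bhlhe40* and *Bhlhe41*, with edgeR adjusted p = 0.0503, 0.0543, 0.618, 0.789 and 0.591. *Rora* and *Nfil3* were called by DESeq2 (adjusted p = 0.0335 and 0.0253).

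The sign of most clock genes rested on the scaling of the libraries. With TMM, 8 of 10 log2 fold changes were above 0, and with upper-quartile scaling also 8, but with library sizes alone and with ERCC scaling 1 was, that of *Per2*. The median of all tested genes fell by 0.42 and by 0.72 under these alternatives, and TMM factors ranged from 1.13 to 1.21 in WT mice and from 0.802 to 0.984 in KO mice. The ERCC RNAs made up 1.47, 1.84 and 1.42% of all counts in WT mice 1, 2 and 3 and 2.75, 2.31 and 1.35% in KO mice 1, 2 and 3. The part of this spread in calls lost under ERCC scaling was not tested. Relative to the median gene, *Per3* was at 0.24, 0.24 and 0.28 and *Tef* at 0.29, 0.29 and 0.29 with TMM, library sizes alone and ERCC scaling. *Npas2* was at −1.15, −1.17 and −1.30 by the same measure. With TMM 8 of 10 clock genes lay above the median gene, and 6 did without WT mouse 1 and 7 without WT mouse 3. A change of scaling shifts all genes nearly alike and so can hardly alter this count.

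**Figure D4:**
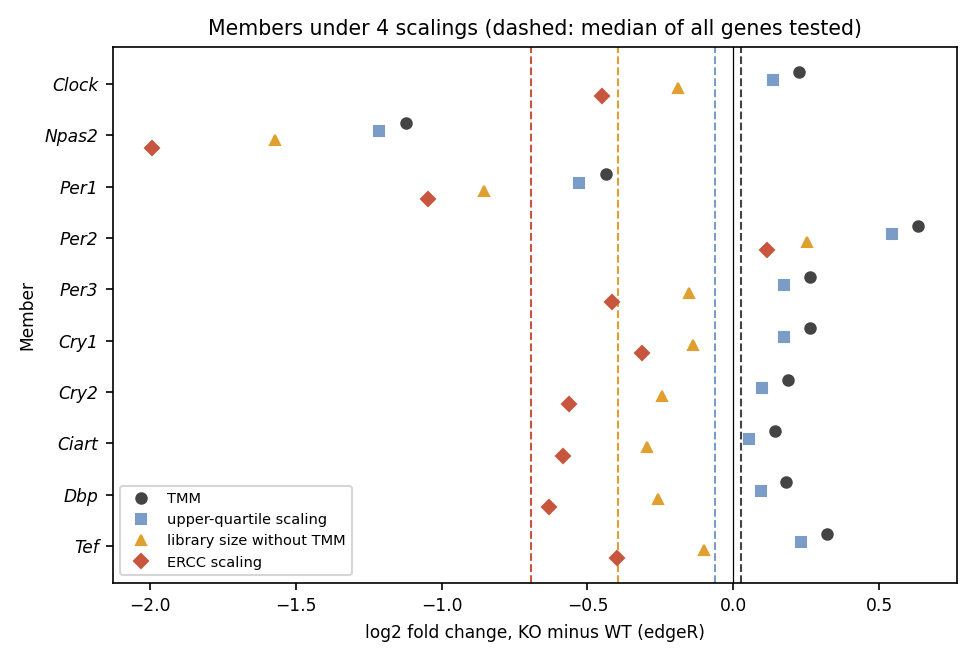
Log2 fold change (KO minus WT, edgeR) of the 10 clock and PAR-bZIP genes under 4 scalings of the libraries, with a dashed line of the same colour at the median of all tested genes under each. The points shift left together with the dashed lines from TMM to ERCC scaling, *Npas2* and *Per1* are left of the median line of their scaling, and the other 8 genes are right of it.

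Kinases, ligases and other modifiers of clock proteins gave 1 of 11 called, beside 29.0% of all genes. *Csnk1e*, the kinase CK1ε that marks PER proteins for degradation, fell from 28.4 ± 3.23 (SD, n = 3) CPM in WT to 15.2 ± 3.28 CPM in KO (log2 fold change −0.90, SE 0.18, edgeR adjusted p = 0.00819), and the call held under all 15 alternatives of scaling, filter, tool and mice. *Csnk2a1*, a subunit of the kinase CK2, was at 0.32 (edgeR adjusted p = 0.0556) and was called by DESeq2 (adjusted p = 0.0217).

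Genes known to cycle with the clock in liver gave 6 of 15 called (5 higher and 1 lower, 40.0%), beside 29.0% of all genes (12.5% higher and 16.5% lower). Their median log2 fold change was 0.61, against 0.03 for all tested genes and 0.56 for the 5 matched hepatocyte markers, of which 1 was called. Whether the share of hepatocyte RNA has a part in this was not tested. *Elovl3*, which elongates very long fatty acids, rose from 18.8, 9.10 and 12.2 CPM in WT mice to 152, 168 and 65.6 CPM in KO mice, with no overlap (log2 fold change 3.26, SE 0.42, edgeR adjusted p = 0.00226). *Noct* fell from 95.6, 81.5 and 63.1 CPM in WT mice to 17.3, 31.6 and 29.4 CPM in KO mice (−1.62, SE 0.25, edgeR adjusted p = 0.0032). Both calls held under all 15 alternatives.

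*Nr1i3*, the xenobiotic receptor CAR, *Ppara*, the fatty acid sensor, *Alas1*, the first enzyme of haem synthesis, and *Gys2*, liver glycogen synthase, also rose. Their log2 fold changes were 1.77, 1.10, 0.95 and 0.61 with edgeR adjusted p = 0.0037, 0.0037, 0.0064 and 0.0185, and under ERCC scaling all 4 calls were lost, with −0.095 for *Gys2*. With library sizes alone the calls of *Alas1* (edgeR adjusted p = 0.063) and *Gys2* (0.334) were also lost, and that of *Gys2* was lost without WT mouse 1 (0.0637) or WT mouse 2 (0.0545). The other 9 did not pass, among them *Wee1*, *Usp2* and *Por*. Of the genes that rose, *Ppara*, *Alas1* and *Gys2* are also known to follow fasting, feeding and lipid state.

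Glucocorticoid, heat and cold responsive genes, which carry systemic timing cues to the liver clock, gave 4 of 12 called (2 higher and 2 lower, 33.3%, *Per1* included as not called), near the 29.0% of all genes. The heat shock genes *Hsp90aa1* and *Hsph1* rose (log2 fold change 1.06 and 1.09, edgeR adjusted p = 0.00155 and 0.0068), while *Hspa1a* fell (−0.99, 0.0496). The cold-induced gene *Rbm3* fell by 0.46 on the log2 scale (edgeR adjusted p = 0.0325) and its relative *Cirbp* was at −0.59 (0.0552), and the glucocorticoid target *Sgk1* was at −0.88 (0.055). The other glucocorticoid-responsive genes of the list did not share 1 direction. *Fkbp5* was at 0.38 (edgeR adjusted p = 0.463), *Tsc22d3* at −0.68 (0.344) and *Per1* at −0.44 (0.324), and all of these overlapped. *Hspa1a* has a near-identical copy, *Hspa1b*, and its reads may be split between them. *Cirbp* was called under 9 of 15 alternatives, DESeq2 (adjusted p = 0.0284) and limma-voom (0.043) among them, and *Sgk1* under 7, with DESeq2 (0.0172) among them. The calls of *Hspa1a* and *Rbm3* were lost under 8 and 7 of 15 alternatives, and those of *Hsp90aa1* and *Hsph1* under ERCC scaling.

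**Figure D5:**
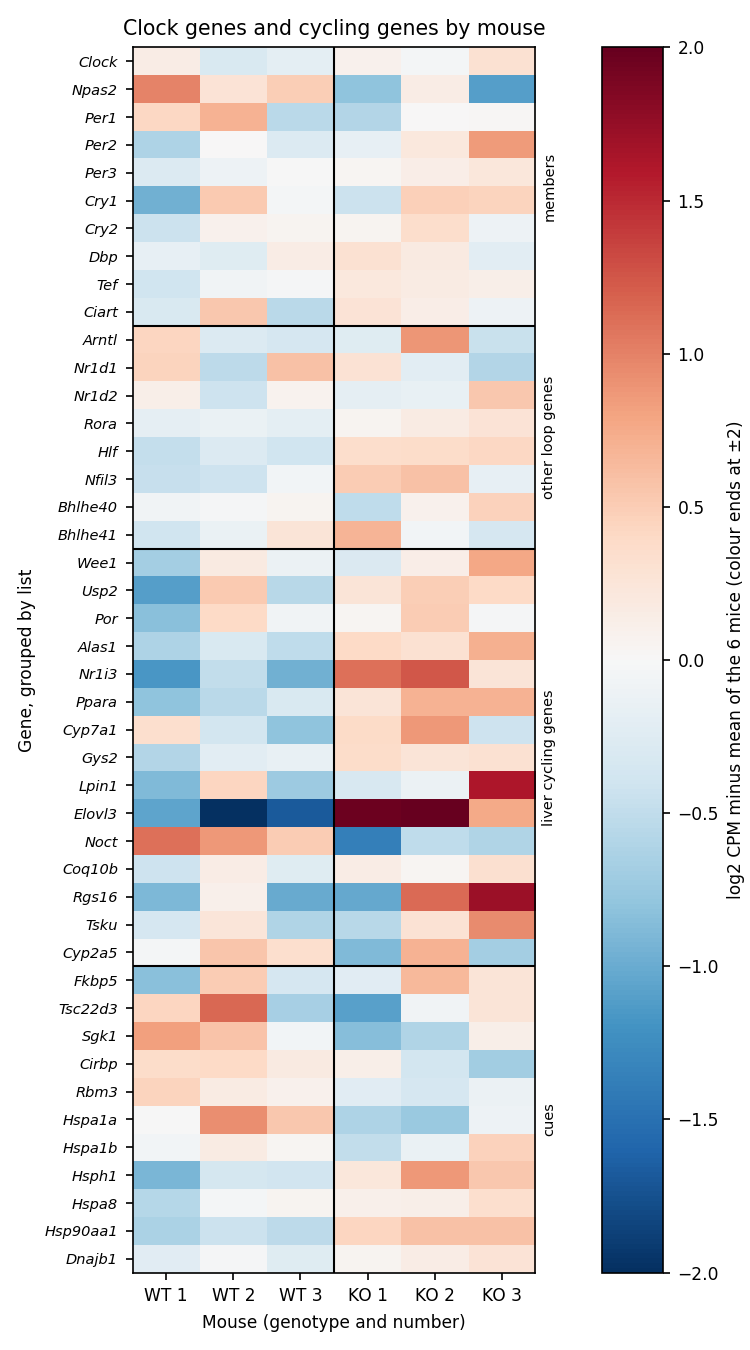
Log2 CPM of each gene minus its mean over the 6 mice, in colour, for the clock genes, the other genes of the loops, liver genes known to cycle and genes of glucocorticoid and temperature cues; columns are mice, and colours end at 2 log2 units. *Hlf*, *Elovl3* and *Nr1i3* split by genotype, while most of the 10 clock genes in the top rows vary from mouse to mouse within a genotype.

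The genes whose profile over the 6 mice was nearest to that of *Dbp*, by the root mean square difference of centred log2 CPM over 16071 genes, were *Amdhd1*, *Mvb12a*, *Fam19a5*, *Nxt1* and *Mrm3*, at 0.055 to 0.063 log2 units. *Amdhd1*, for example, was at 155, 143 and 186 CPM in WT mice and at 221, 189 and 136 CPM in KO mice, the same order of mice as *Dbp* within each genotype. These genes were chosen by their values in all 6 mice, so their difference between genotypes is set by that of the gene they were matched to and was not read as a result. The genes nearest to *Npas2* were *Fam78a*, *Asb2*, *Adamts6*, *Cd79a* and *Gm12250*, at 0.129 to 0.190 log2 units. Chosen in the same way, they had log2 fold changes of −0.98, −0.95, −1.08, −0.89 and −1.07, near that of *Npas2* by the choice itself. *Cd79a* is also 1 of the 5 lymphocyte markers, whose sum fell with genotype as given above, and *Gm12250* is annotated as a processed pseudogene, so its reads may be shared with related genes.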

How the data were processed

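Liver RNA was sequenced from 3 WT and 3 KO mice. The authors trimmed reads with Trimmomatic 0.36, mapped them to GRCm38 with ERCC sequences using STAR 2.5.2b and deposited raw counts per gene, with no normalization; featureCounts (Subread 1.5.2) is named in the submitters' processing notes. The use of the strand is not given in the sources used here. Here the 92 ERCC RNAs were left out of library sizes, except under ERCC scaling. Of 49671 gene IDs, 259 had no entry in GENCODE M21, with 0.0116% of counts. Genes were filtered (filterByExpr), TMM-scaled and tested with edgeR 4.0.16 (quasi-likelihood, robust, two-sided, R 4.3.3) with Benjamini-Hochberg adjustment and a threshold of 0.05. SEs and 95% intervals come from its F statistics. The same fit was run on simulated counts with as many genes raised as lowered, which cannot test the scaling of these libraries. The study used limma-voom, which is an alternative here (limma 3.58.1), as are DESeq2 1.42.0, other scalings and filters, a replicate block and leaving out each mouse. The clock genes and the other lists were chosen with earlier results of these data known. Of the lists other than the clock loops, at most the 6 genes with the smallest adjusted p were named by rule. A result of 1 gene of the lists is not reported here. No pair of libraries of a group agreed within sampling noise (chi-square per gene 25.9 to 155), so none was treated as a repeat deposit of another.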

Additional observations from a re-analysis of the deposited data

How the results depend on the processing

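Called clock genes numbered 0 of 10 under TMM and also under DESeq2, limma-voom, upper-quartile scaling, no filter, dispersions without robust estimation and the replicate block. With at least 10 counts in every sample, which leaves out *Npas2*, 0 of 9 were called. The number was 1 with library sizes alone or ERCC scaling (*Npas2*) and 0 to 1 without each mouse in turn (*Per2* without KO mouse 1). The study's cutoff took 2 on the edgeR p-values and 3 on those of limma-voom. Called loop genes numbered 1 of 8, but 3 by DESeq2, 2 with no filter, 0 with library sizes alone, 0 with ERCC scaling and 1 to 2 without each mouse (2 without KO mouse 1, with *Rora*, or without KO mouse 3, with *Nfil3*). All called genes numbered 4663 of 16089 tested, but 2866 with ERCC scaling. They ranged from 2426 of 16336 (without WT mouse 3) to 5597 of 16774 (without KO mouse 3) when a mouse was left out. DESeq2 called 5414 of 16042, limma-voom 4789, library sizes alone 5462 and upper-quartile scaling 4500. With no filter the number was 4263 of 29420, with at least 10 counts 4003 of 13815, and without robust estimation 4650. Without KO mouse 1 it was 4828 of 16395. With TMM 2012 were higher and 2651 lower in KO, against 539 and 4923 with library sizes alone and 107 and 2759 with ERCC scaling.

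Signs turned with library sizes alone for *Clock* (−0.19), *Per3* (−0.15), *Cry1* (−0.14), *Cry2* (−0.24), *Dbp* (−0.26), *Tef* (−0.10), *Ciart* (−0.29), *Arntl* (−0.27), *Nr1d2* (−0.23), *Rora* (−0.083), *Bhlhe40* (−0.30), *Bhlhe41* (−0.22) and *Csnk2a1* (−0.10), and with ERCC scaling for *Clock* (−0.45), *Per3* (−0.42), *Cry1* (−0.31), *Cry2* (−0.56), *Dbp* (−0.63), *Tef* (−0.40), *Ciart* (−0.58), *Arntl* (−0.67), *Nr1d2* (−0.43), *Rora* (−0.34), *Nfil3* (−0.21), *Bhlhe40* (−0.48), *Bhlhe41* (−0.64), *Csnk2a1* (−0.39) and *Gys2* (−0.095). The shift of the median gene under both scalings is part of these values. *Bhlhe40* was at −0.0014 with upper-quartile scaling. Without each mouse in turn, 6 genes turned, with ranges of −0.045 (without WT mouse 1) to 0.65 for *Cry1*, −0.061 (WT mouse 3) to 0.53 for *Ciart*, −0.33 (KO mouse 2) to 0.48 for *Arntl*, −0.13 (KO mouse 3) to 0.29 for *Nr1d2*, −0.18 (KO mouse 3) to 0.31 for *Bhlhe40* and −0.12 (KO mouse 1) to 0.42 for *Bhlhe41*. Beyond scaling and left-out mice, the cause was not tested. Of 494 single-gene values under alternatives, 408 kept direction and side of the threshold.

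Same-numbered WT and KO mice deviated with r of −0.046, 0.013 and −0.077 across genes. Between differently numbered mice r ranged from −0.024 to 0.081. Litter and hour of harvest of single mice are not given in the sources, so these values cannot decide whether the numbers pair the mice. The replicate block gave 3584 called genes, 0 clock genes and 1 loop gene. *Npas2* rests on 7 to 48 reads a mouse, so its difference is the least precise of the 10.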
